A study of Mus musculus with 20 samples.

Results

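The genes described here are the nuclear genes of mitochondrial oxidative phosphorylation, chosen by symbol: those beginning Nduf followed by a, b, s, v or c, those beginning Uqcr, Cox4 to Cox8 or Atp5, and Sdha to Sdhd, without pseudogene names. The rule took 92 of the 24411 genes in the count tables. By symbol, 45 belong to complex I (7 of them Ndufaf assembly factors), 4 to complex II, 8 to complex III, 18 to complex IV and 17 to complex V. Ndufa4 and its paralogue Ndufa4l2 were counted with complex I by their symbols, although NDUFA4 is known as a subunit of complex IV. Atp5s and Atp5sl carry complex V symbols, but RefSeq names them Dmac2l and Dmac2. The chain subunits encoded in mitochondrial DNA were not analysed here.

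RNA was sequenced from the apical coil of the mouse cochlea, a tissue that holds the sensory epithelium and the spiral ganglion neurons. All mice were C57BL/6N, of both sexes, and carried the tm2b allele of Bai1 (Adgrb1), in which exons 3 to 4 are deleted and a lacZ cassette is left, so that the long isoform is knocked out. Controls were heterozygous (Bai1tm2b/+) and were compared with homozygous littermates (Bai1tm2b/tm2b), so the controls carried 1 copy of the same allele and no wild-type library was analysed here. Each library pooled 4 mice. At P22 (day 22) there were 3 heterozygous and 3 homozygous libraries in 1 sequencing batch. At P7 (day 7) there were 2 batches. Replicates 5 to 7 (3 libraries per genotype) were deposited as estimated counts, and replicates 1 to 4 (4 per genotype) as whole numbers that sum to between 999644 and 999777 per library, treated here as rounded TPM, in which transcripts are scaled to their length and to 1000000 in all.

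Oxidative phosphorylation takes place at the inner mitochondrial membrane. Complex I (NADH dehydrogenase) and complex II (succinate dehydrogenase) pass electrons to ubiquinone, complex III passes them to cytochrome c, complex IV (cytochrome c oxidase) passes them to oxygen, and complex V (ATP synthase) makes ATP from the proton gradient that complexes I, III and IV build. Most subunits are nuclear-encoded and imported, and several subunits of complex IV have paralogues that are used in particular tissues. The cochlea is rich in cells with a high demand for ATP, among them hair cells, spiral ganglion neurons and the ion-pumping cells of the lateral wall.

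Library totals ranged from 31108551 to 58807173 counts at P7 and from 35725985 to 40350413 at P22. The value of the targeted gene, Adgrb1, sums all its isoforms and so does not check the deleted exons. It was 152 to 167 CPM (counts per 1000000) in the heterozygous and 100.2 to 105 CPM in the homozygous libraries at P22. At P7 it was 32.1 to 56.4 against 21.6 to 31.2 CPM in the count libraries, and it overlapped in the TPM libraries (7 to 12 against 9 to 12 TPM). CPM values are scaled by edgeR's TMM factors over the 12 count libraries. A gene is called when its Benjamini-Hochberg adjusted p, over all genes tested in the comparison, is under 0.05. Genotype differences are log2 fold changes of homozygous over heterozygous libraries and age differences are P22 over P7, each ± its standard error (SE). Since replicates are separate pools of mice, p-values measure the spread between pools.

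In the heterozygous libraries at P22, the levels per transcript length spanned a wide range within each complex. Atp5b, the catalytic beta subunit of the ATP synthase, was the highest of all by this measure, with a level of 1105 CPM per kb. It was followed by Cox4i1, the common form of the regulatory subunit COX4, with 708 CPM per kb, and by Cox6a1 with 707 CPM per kb. In complex I the highest level was that of Ndufa4 (518 CPM per kb), in complex III that of the hinge protein gene Uqcrh (409.7 CPM per kb) and in complex II that of Sdha, the flavoprotein subunit (212 CPM per kb). The lowest levels among the tested genes of complexes IV, I and V were those of Cox4i2 (2.38 CPM per kb), the oxygen-responsive paralogue of Cox4i1, Ndufa4l2 (4.48 CPM per kb) and Atp5s (11.6 CPM per kb). Sdhc, a membrane anchor of complex II, was lowest in its complex with 76.7 CPM per kb, and Uqcrfs1, the Rieske iron-sulfur protein of complex III, in its own with 138 CPM per kb. These levels use the median length of annotated transcripts, and their order differs from that of the deposited TPM. In heterozygous P7 count libraries Atp5b was also above Atp5e per length (509 and 292 CPM per kb). The heterozygous P7 TPM libraries had means of 2207 TPM for Atp5e, 2112 TPM for Cox4i1 and 1455 TPM for Atp5b. Cox6a2, Cox7b2 and Cox8c, paralogues known from muscle or testis, had 0 to 22, 0 to 4 and 0 to 1 counts per library and were not tested at P22. Cox7c, Ndufa13 and Ndufs5 had fractional counts in each of the 12 count libraries, so part of their reads is shared with other transcripts and their values are uncertain.

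From P7 to P22 the nuclear oxidative phosphorylation genes rose together. In heterozygous libraries they took 0.912% to 1.03% of all counts at P7 and 1.44% to 1.57% at P22, a 1.55-fold rise in the mean share, from 0.968% ± 0.060 (SD, n = 3) to 1.498% ± 0.065 (SD, n = 3). In homozygous libraries the share went from 0.945% ± 0.071 (SD, n = 3) to 1.46% ± 0.050 (SD, n = 3), also 1.55-fold. No P7 library reached the share of any P22 library, in total or in any of the 5 complexes. The rise of the heterozygous share was 1.56-fold for complex I, 1.57-fold for complex II, 1.43-fold for complex III, 1.55-fold for complex IV and 1.56-fold for complex V. Age coincides here with the table, the dissection and the sequencing batch, and these cannot be told apart. In bulk tissue, a change in the number of cells of a type and a change in RNA per cell cannot be told apart either.

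**Figure D1:**
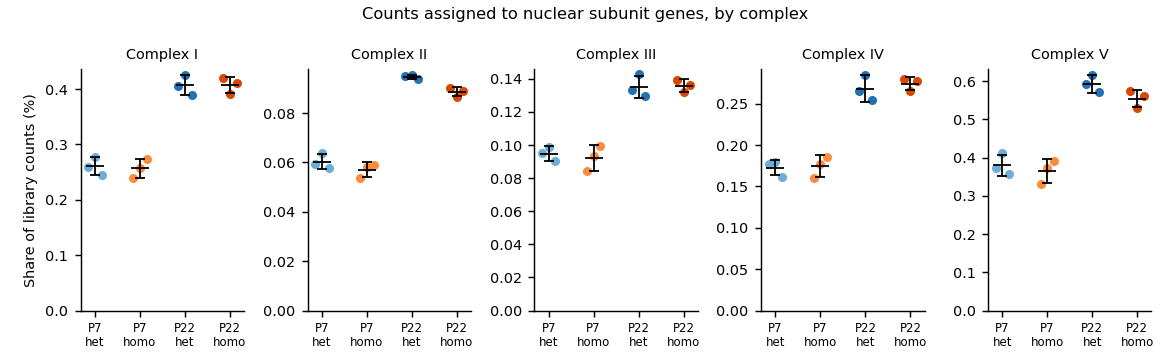
Share of each library's counts (%) assigned to the nuclear genes of complexes I to V, for the 12 count libraries; points are libraries, bars the mean ± SD (n = 3). In each complex all 6 P22 libraries sit above all 6 P7 libraries, and in complex II the heterozygous P22 libraries (0.0936% to 0.0954%) sit above the homozygous ones (0.0866% to 0.0902%).

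By gene, 82 of the 90 genes tested rose and 2 fell in heterozygous libraries (edgeR quasi-likelihood test). Among all 16314 genes tested, 34.6% rose and 38.2% fell. The median log2 fold change was 0.84 for the oxidative phosphorylation genes and −0.06 for all genes tested, and 27 of the 90 more than doubled. These fold changes are after TMM scaling, with factors of 1.07 to 1.11 in heterozygous P7 and 0.871 to 0.891 in heterozygous P22 libraries. The shares of counts given above carry no such factor, so the 2 measures are not on the same scale. In homozygous libraries 84 rose and 1 fell, against 35% and 36.8% of all genes, with a median of 0.85. The 2 genotypes use separate libraries at both ages. With the study's further limits (an absolute log2 fold change over 0.5 and an SE under 0.5), 75 rose and 2 fell in heterozygous libraries, where 24.8% and 27% of all genes did.

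All 4 genes of complex II and 42 of 45 of complex I rose in heterozygous libraries, as did 7 of 8 of complex III, 13 of 16 tested of complex IV and 16 of 17 of complex V. The median log2 fold change was 0.87 for complex I, 0.70 for complex II, 0.64 for complex III, 0.84 for complex IV and 0.85 for complex V. Within complex I, the 7 core subunits, which carry the flavin and iron-sulfur clusters, had a median of 1.16, the 31 accessory subunits, with Ndufa4l2, 0.83, and the 7 assembly factors 1.03. In complex II the catalytic pair Sdha and Sdhb had a median of 1.08 and the membrane anchors Sdhc and Sdhd 0.48. The differences between these sets were not tested.

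The rise in complexes I to IV is illustrated by 4 genes. Ndufs1, the largest iron-sulfur subunit of complex I, was at 100.3, 124 and 101 CPM in the heterozygous P7 libraries and at 239.8, 238 and 260.4 CPM at P22. Sdha was at 246, 276 and 242 CPM at P7 and at 623, 591 and 628 CPM at P22, a log2 fold change of 1.27 ± 0.08 (edgeR adjusted p = 4.1e-08). Uqcrc1, a core subunit of complex III, went from 154, 196 and 163 CPM to 418, 449 and 436 CPM, a log2 fold change of 1.35 ± 0.13 (edgeR adjusted p = 8.4e-07). In each of these genes the lowest P22 library was above the highest P7 library. Cox5a, a nuclear subunit of complex IV, was at 85.9, 110.4 and 84.0 CPM at P7 and at 364, 364 and 365 CPM at P22. Its log2 fold change of 1.96 ± 0.13 was the second in size among the genes that rose (edgeR adjusted p = 4.1e-08). The largest rise in complex I was that of Ndufab1, the mitochondrial acyl carrier protein (1.57 ± 0.10), and in complex V that of Atp5sl (1.45 ± 0.08).

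The genes that did not rise were few. In heterozygous libraries Cox4i2 fell by 1.22 on the log2 scale (SE 0.24, edgeR adjusted p = 0.00050), from 4.16, 4.05 and 3.87 CPM to 1.69, 2.20 and 1.32 CPM. Cox6b2, a paralogue of Cox6b1 known from testis, fell by 0.54 (SE 0.15, edgeR adjusted p = 0.0054), from 5.64, 5.68 and 6.23 CPM to 3.56, 4.46 and 4.02 CPM. Both were low genes with groups that did not overlap. In homozygous libraries Cox4i2 fell by 1.21 (SE 0.23, edgeR adjusted p = 0.00049), whereas Cox6b2 had a log2 fold change of −0.17 ± 0.15 and was not called. The other genes without a call in heterozygous libraries were chosen for mention after their values were seen, apart from Cox6a2 and Ndufa4l2. Atp5e, the epsilon subunit of the ATP synthase, was at 132, 121 and 116 CPM at P7 and at 122, 146 and 118 CPM at P22, with overlapping groups and a log2 fold change of 0.06 ± 0.09. Uqcr11 had a log2 fold change of 0.22 ± 0.11, Ndufa4l2 0.23, Ndufa1 0.18 ± 0.10, Ndufa7 0.18 ± 0.08 and Cox6a2 −1.94 ± 1.05. Atp5e, Uqcr11 and Ndufa7 were called higher at P22 in homozygous libraries (0.21, 0.40 and 0.34).

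**Figure D2:**
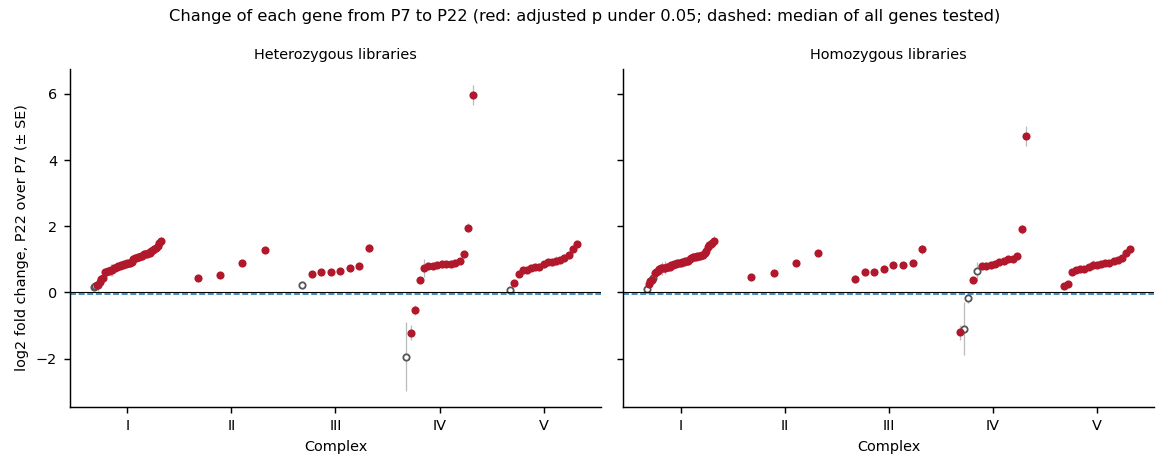
Log2 fold change from P7 to P22 (± SE) of each gene tested, by complex, in heterozygous (left) and homozygous (right) libraries; red points have an adjusted p under 0.05 and the dashed line is the median of all genes tested. The quartiles of the points are 0.64 and 1.07 on the left and 0.69 and 1.04 on the right, with Cox8b far above (5.98 and 4.72) and Cox4i2 below (−1.22 and −1.21). The lowest point on the left is Cox6a2 (−1.94), a gene with few counts.

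Cox8b, the heart and muscle paralogue of the complex IV subunit Cox8a, had the largest age difference. It was at 1.06, 0.447 and 0.522 CPM in heterozygous P7 libraries and at 39.8, 50.2 and 33.6 CPM at P22. The log2 fold change was 5.98 ± 0.30 in heterozygous (edgeR adjusted p = 6.0e-09) and 4.72 ± 0.30 in homozygous libraries (edgeR adjusted p = 4.1e-08). Every P22 library was therefore far above every P7 count library. Cox8a, the common form, was at 211, 212 and 195 CPM at P7 and at 361, 377 and 329 CPM at P22 (log2 fold change 0.79 ± 0.10, edgeR adjusted p = 1.5e-05). Per transcript length, Cox8b made up 0.321% to 0.762% of the Cox8a and Cox8b level in heterozygous P7 libraries and 13.5% to 16.9% at P22. In homozygous P22 libraries its part was 6.28% to 8.05%, below each heterozygous library. The heterozygous P7 TPM libraries had 4, 12, 46 and 19 TPM of Cox8b beside 1714, 1689, 1769 and 1721 TPM of Cox8a. The part of Cox8b at P7 thus differed widely between those libraries. The size of such parts in the count libraries depends on the annotated transcript lengths used. Cox8c had 1 count in 1 library of the 12.

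The other paralogue sets of complex IV stayed with their common form. Cox4i2 made up 1.30% to 1.38% of the Cox4 pair per length in heterozygous P7 libraries and 0.262% to 0.399% at P22. The part of Cox6b2 went from 5.02% to 6.17% at P7 down to 1.92% to 2.20% at P22. That of the muscle form Cox7a1, against Cox7a2, was 5.23% to 7.37% at P7 and 4.00% to 8.24% at P22, with overlapping libraries. Its part was larger in the heterozygous P7 TPM libraries, with means of 91.25 TPM for Cox7a1 and 374 TPM for Cox7a2. The 13 skeletal muscle markers summed to 39.2 to 53.5 CPM in heterozygous P7 libraries, 105 to 112 CPM in heterozygous and 60.4 to 71.7 CPM in homozygous P22 libraries. Most of this was Pygm, the muscle glycogen phosphorylase. Mybpc2, a myosin-binding protein of fast fibres, moved in the same directions as Cox8b, from 0.246, 0.239 and 0.392 CPM in heterozygous P7 libraries to 3.99, 3.99 and 3.08 CPM at P22, against 0.868, 0.876 and 0.726 CPM in homozygous P22 libraries. The other 11, with Acta1, Ckm, the troponins and the myosins among them, were at most 1.53 CPM in any P22 library. With age in heterozygous libraries, 3 of the 12 muscle markers tested were called higher and 5 lower, with a median of −0.38. Of all genes, 34.6% were higher and 38.2% lower. The 6 brown fat markers summed to 224.8 to 296 CPM in heterozygous P7 and 15.8 to 26.7 CPM in heterozygous P22 libraries. Most of the P7 sum was Dio2, at 221, 292 and 273 CPM, and Ucp1 was at most 0.222 CPM in these libraries. At P22 Ucp1 was at most 0.133 CPM, Cidea was at 0.859 to 2.81 CPM and Dio2 at 13.8 to 25.2 CPM. The part of these cell types in the Cox8b levels was not tested. The 3 genes for the membrane c subunit of the ATP synthase, whose products share a mature protein, did not rise alike. Atp5g1 rose by 1.32 ± 0.12, Atp5g3 by 0.78 ± 0.10 and Atp5g2 by 0.27 ± 0.09 in heterozygous libraries. The part of Atp5g1 in their summed level per length went from 7.53% to 8.11% at P7 up to 12.1% to 12.5% at P22. In the heterozygous P7 TPM libraries its part was larger than this P7 value. The means there were 485.5 TPM for Atp5g1, 731 TPM for Atp5g2 and 1167.5 TPM for Atp5g3.

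**Figure D3:**
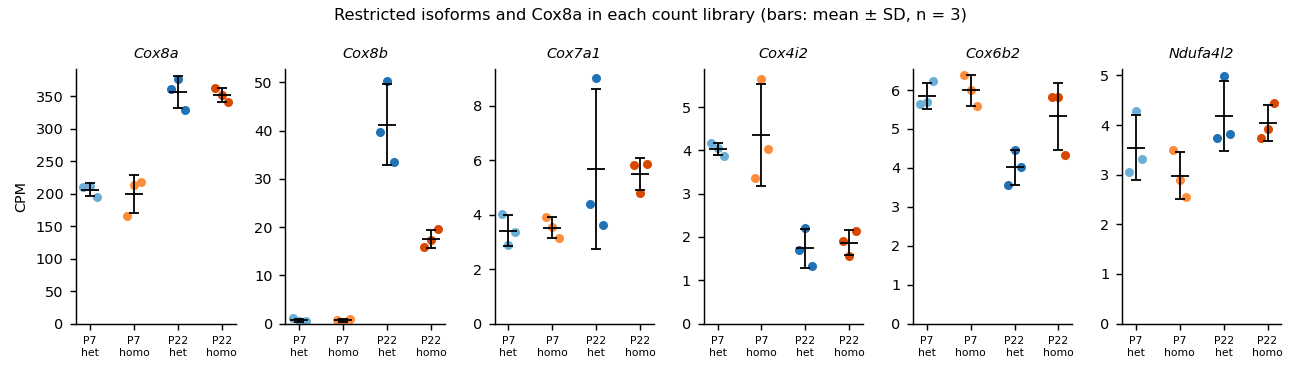
CPM of Cox8a and of 5 paralogues with restricted use in each count library; points are libraries, bars the mean ± SD (n = 3), and each panel has its own axis from 0. Cox8b is under 1.1 CPM in all P7 libraries, 33.6 to 50.2 CPM in the heterozygous and 15.9 to 19.6 CPM in the homozygous P22 libraries.

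Promoters were read because so many of the genes moved together with age. Of the 92 genes, 76 have an entry in the RefSeq promoter table (build GRCm38.p6, 250 bases before to 50 after the start). The NRF1 core GCATGCGC, the ETS motif CCGGAAG read by GABP, the YY1 motif AAGATGGC and the ERR motif AAGGTCA were searched on both strands, since these 4 factors are known regulators of nuclear mitochondrial genes. The NRF1 core was in 12 of 76 promoters (15.8%), against 3.9% of the promoters of 17491 coding genes. The ETS motif was in 17 (22.4% against 12.9%), the YY1 motif in 11 (14.5% against 3.6%) and the ERR motif in 8 (10.5% against 4.7%). A match is a description of the letters and not a bound site. The 38 genes with at least 1 motif had a median age log2 fold change of 0.83 in heterozygous libraries, and the 38 without any had 0.89.

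Windows from 200 bases before the start to 30 after it are shown for 6 genes, chosen after their motifs and values were seen: 1 gene per complex with a motif, plus Cox8b. The motifs are in capitals, positions are counted from the first transcribed base as 1, and each window reads 5′ to 3′ on the strand of its gene. Ndufa6 (chr15:82354262-82354491, minus strand), an accessory subunit of complex I, has an NRF1 core at −83. Sdhb (chr4:140961071-140961300, plus strand) has an NRF1 core at −54 and an ETS motif at 7. Uqcr11 (chr10:80406792-80407021, minus strand) has an ETS motif at −66 and an NRF1 core at −4. Cox6a1 (chr5:115348929-115349158, minus strand) has NRF1 cores on both strands that overlap, at −162 and −160, and a reverse ETS motif at −16. Atp5f1 (chr3:105959234-105959463, minus strand), the peripheral stalk subunit b, has a reverse YY1 motif at −3. Cox8b (chr7:140900417-140900646, minus strand) holds none of the 4 motifs.
Ndufa6: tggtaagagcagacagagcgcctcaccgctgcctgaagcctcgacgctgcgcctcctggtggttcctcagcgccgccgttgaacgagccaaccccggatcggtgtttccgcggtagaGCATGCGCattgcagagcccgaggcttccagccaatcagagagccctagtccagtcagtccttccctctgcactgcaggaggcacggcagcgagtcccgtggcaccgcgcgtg
Sdhb: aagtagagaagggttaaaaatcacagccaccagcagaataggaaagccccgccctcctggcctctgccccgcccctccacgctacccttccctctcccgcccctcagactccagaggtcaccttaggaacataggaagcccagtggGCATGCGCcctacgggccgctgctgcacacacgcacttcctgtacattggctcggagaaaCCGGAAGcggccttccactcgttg
Uqcr11: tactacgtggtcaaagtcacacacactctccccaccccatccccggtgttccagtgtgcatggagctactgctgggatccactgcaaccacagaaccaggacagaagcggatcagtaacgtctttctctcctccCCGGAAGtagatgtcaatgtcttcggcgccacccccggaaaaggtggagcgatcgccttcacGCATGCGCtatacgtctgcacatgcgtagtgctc
Cox6a1: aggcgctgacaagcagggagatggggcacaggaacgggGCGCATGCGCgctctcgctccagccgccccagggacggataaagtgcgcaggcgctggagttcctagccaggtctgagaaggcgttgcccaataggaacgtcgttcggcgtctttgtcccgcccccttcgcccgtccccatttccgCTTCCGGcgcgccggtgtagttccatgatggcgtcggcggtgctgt
Atp5f1: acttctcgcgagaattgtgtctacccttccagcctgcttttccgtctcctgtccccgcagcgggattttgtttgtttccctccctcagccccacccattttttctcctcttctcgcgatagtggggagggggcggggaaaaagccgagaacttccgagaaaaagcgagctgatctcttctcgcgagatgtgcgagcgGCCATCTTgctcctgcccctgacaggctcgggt
Cox8b: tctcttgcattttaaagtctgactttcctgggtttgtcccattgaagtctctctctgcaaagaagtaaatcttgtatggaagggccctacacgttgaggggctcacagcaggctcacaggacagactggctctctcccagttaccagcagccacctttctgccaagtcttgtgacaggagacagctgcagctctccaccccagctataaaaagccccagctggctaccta

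At P22 a minority of the genes were lower in homozygous libraries, 9 of them with log2 fold changes between −0.28 and −0.22 and Cox8b with −1.22. In edgeR's quasi-likelihood test 10 of 89 genes were lower in homozygous libraries and 0 were higher. That is 11.2% called lower, against 7.28% of the 15443 genes tested (5.04% were higher), and the median log2 fold change was −0.03, against 0.01 for all genes. At an unadjusted p under 0.05, 20 were lower and 5 higher, where 15% and 13.7% of all genes were. The groups did not overlap for 20 genes that were lower and 3 that were higher (18.8% and 15% of all genes). Of the log2 fold changes, 83 of 89 lay within ±0.25.

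Of complex I, 5 genes were called: Ndufs1, the iron-sulfur subunit; Ndufv1, which binds NADH and FMN; and the accessory genes Ndufa9, Ndufa10 and Ndufab1. Ndufs1 was at 239.8, 238 and 260.4 CPM in heterozygous and at 207, 194 and 205 CPM in homozygous libraries, a mean of 82.1% of the heterozygous one. Each homozygous library lay below each heterozygous one, and the log2 fold change was −0.28 ± 0.06 (edgeR adjusted p = 0.014). Those of the other 4 were between −0.26 and −0.22. Ndufa10, which is named for its call only and was outside the naming rule, was at 152, 165 and 166 against 144, 124 and 137 CPM.

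Of complex II, Sdha was lower, at 623, 591 and 628 CPM against 533, 513 and 524 CPM. The log2 fold change was −0.22 ± 0.05 (edgeR adjusted p = 0.026), and the groups did not overlap. In complex III edgeR called 0 of 8 genes (2 lower and 1 higher at an unadjusted p under 0.05), and DESeq2 called the core subunits Uqcrc1 and Uqcrc2 lower and Uqcr10 higher (the last 2 chosen for mention after their values were seen). In complex V the alpha and beta subunits of the catalytic head were both lower. Atp5b was at 2149, 2146 and 2054 CPM in heterozygous and at 1858, 1626 and 1794 CPM in homozygous libraries (−0.26 ± 0.07, edgeR adjusted p = 0.033). Atp5a1 was at 1575, 1599 and 1599 against 1392, 1268 and 1322 CPM (−0.25 ± 0.06, edgeR adjusted p = 0.022). For neither gene did the groups overlap. The 10 genes of the membrane part and stalk of the ATP synthase had 0 calls in edgeR and 0 in DESeq2 (1 lower and 0 higher at an unadjusted p under 0.05) and a median of −0.0025.

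Cox8b had the largest genotype difference. It was at 39.8, 50.2 and 33.6 CPM in heterozygous and at 15.9, 17.3 and 19.6 CPM in homozygous libraries, 42.7% of the heterozygous mean, with a log2 fold change of −1.22 ± 0.14 (edgeR adjusted p = 0.0012). It was the 1 gene that also passed the study's limits on size and SE, which 1.41% of all genes passed in that direction. Its paralogue Cox8a, at 361, 377 and 329 against 362, 352 and 341 CPM, had overlapping groups. Cox5a, the other call in complex IV, was at 364, 364 and 365 against 332, 285 and 318 CPM (−0.22 ± 0.06, edgeR adjusted p = 0.049), and none of the 3 homozygous libraries reached the heterozygous values.

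Of the 10 calls, 1 was left without heterozygous replicate 1, 5 without heterozygous replicate 3, and 2 without homozygous replicate 2 or homozygous replicate 3. Calls over all genes went from 1904 to 630, 975, 975 and 1068 in these fits. Without heterozygous replicate 2 there were 7 lower and 4 higher calls, and 2108 over all genes. Cox8b stayed called in each of these fits. Neuron markers moved with the genotype at P22: 8 of 12 were lower (median −0.42 on the log2 scale), and their summed level was 15210 to 17300 CPM in heterozygous and 11160 to 12660 CPM in homozygous libraries. Of the skeletal muscle markers, 2 of 7 tested were lower, Mybpc2 (−2.15 ± 0.23) and Pygm (−0.72 ± 0.07), with the levels given above. The other 5 had positive log2 fold changes without a call, and the median of the 7 was 0.25. Hair cell markers had 5 higher and 1 lower of 11, and supporting cell markers 5 higher of 8. The lists for myelin, pericytes, stria vascularis, red cells, neutrophils, macrophages, bone and brown fat had at most 2 calls in a direction each. At an unadjusted p under 0.05 in edgeR, 8 of 8 neutrophil and 5 of 7 macrophage markers were higher and 0 lower. Of all genes, 13.7% were higher. The medians of these 2 lists were 2.04 and 0.31. The summed neutrophil levels were low and overlapped (7.36 to 18.6 CPM in heterozygous and 8.12 to 65.2 CPM in homozygous libraries). The part of these cell types in the differences was not tested.

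At P7, in replicates 5 to 7, none of the 90 genes tested was called between the genotypes in edgeR (0 calls), and DESeq2 gave 0 as well. Over all genes, edgeR called 0% of 16026 and DESeq2 60 of 19380. At an unadjusted p under 0.05 in edgeR the count was also 0 of 90, where 4.76% of all genes passed. The median log2 fold change was −0.03. Among the genes with the smallest p were Ndufs8 (−0.17 ± 0.10), Sdha (−0.14 ± 0.08), Uqcrq (−0.11 ± 0.07), Sdhb (−0.15 ± 0.10) and Ndufaf5 (−0.23 ± 0.16), each with an edgeR adjusted p of 0.89. Cox8b had a log2 fold change of −0.01 ± 0.48. The median SE of the genes was 0.09 at P7 and 0.07 at P22, so differences of the size called at P22 were near the limit of detection in these libraries. Ndufs1, for example, was at 100.3, 124 and 101 CPM in heterozygous and at 85.8, 97.9 and 105 CPM in homozygous libraries, with overlapping groups and a log2 fold change of −0.15 ± 0.10.

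**Figure D4:**
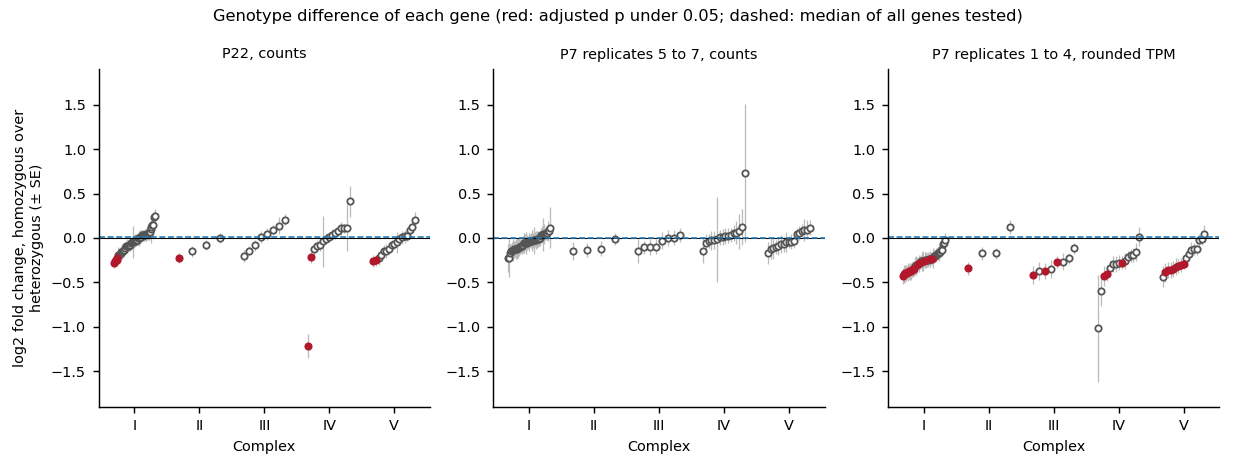
Log2 fold change of homozygous over heterozygous libraries (± SE) of each gene tested, by complex, at P22 (counts), at P7 in replicates 5 to 7 (counts) and at P7 in replicates 1 to 4 (rounded TPM); red points have an adjusted p under 0.05 and the dashed line is the median of all genes tested. There are 10, 0 and 31 red points, all below 0, and in the third panel 86 of the 89 points lie below 0.

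In the other P7 batch, replicates 1 to 4, the genes were lower in homozygous libraries as a group. They made up 4.83% to 5.27% of the TPM in heterozygous and 4.22% to 4.57% in homozygous libraries, without overlap. The same held for complexes I (1.42% to 1.55% against 1.23% to 1.35%), III, IV and V, while complex II overlapped (0.0985% to 0.105% against 0.0965% to 0.101%). In limma's test on log2(TPM + 1) after TMM scaling, 31 of 89 genes were lower and 0 higher. That is 34.8%, against 4.06% of the 11740 genes tested (4.26% were higher), and 86 of the 89 fold changes were negative, with a median of −0.26 against 0.01 for all genes. The smallest adjusted p was 0.045, and 0 genes passed the study's limits on size and SE, which 0.767% of all genes passed. At an unadjusted p under 0.05, 72 were lower and 0 higher, where 17.2% of all genes were lower. For 52 genes the groups did not overlap, against 9.97% of all genes.

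Of the calls, 17 were in complex I, 1 in complex II, 3 in complex III, 3 in complex IV and 7 in complex V. Ndufa4 was at 1614, 1691, 1829 and 1767 TPM in heterozygous and at 1521, 1317, 1328 and 1407 TPM in homozygous libraries, and its log2 fold change was −0.43 ± 0.09 (limma adjusted p = 0.045). Cox7b, a small subunit of complex IV, was at 327, 327, 360.0 and 338 against 307, 266, 264 and 274 TPM (−0.40 ± 0.08, limma adjusted p = 0.045). Ndufs8, an iron-sulfur subunit of complex I, was at 288, 287, 280.0 and 288 against 246, 230.0, 264 and 233 TPM (−0.35 ± 0.07, limma adjusted p = 0.045). In all of these each homozygous library was below each heterozygous one. Ndufaf2, an assembly factor of complex I, had a log2 fold change of −0.39 ± 0.07, Ndufv2 −0.29 ± 0.06, Sdhd −0.34 ± 0.07 and Cox4i1 −0.43 ± 0.11, all called. The TPM printed are as deposited, and the fit scales them further: Sdha, at 185, 188, 159 and 154 against 173, 214, 216 and 207 TPM, had a log2 fold change of 0.12 ± 0.08, and Ndufs1 one of −0.02 ± 0.08, neither called. Cox8b was at 4, 12, 46 and 19 against 5, 7, 16 and 5 TPM, with overlapping groups and a log2 fold change of −1.02 ± 0.60 that was not called.

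The calls of this whole comparison, 977 over all genes, depended on single libraries and on settings. There were 50 without heterozygous replicate 1 (1358 over all 11739 genes tested) and 51 without homozygous replicate 1 (2711 over all 11727). Without any one of the other 6 libraries there were 0 among these genes and 0 over all genes. The same held with no filter on low values, where the smallest adjusted p over all genes was 0.066, and after a trend with transcript length and GC content was removed, where it was 0.12. Neuron markers had 2 higher of 11 in these libraries, with summed levels of 1418 to 2550 TPM in heterozygous and 1997 to 2918 TPM in homozygous libraries, which overlap. Every other marker list had at most 2 calls in a direction. Their part in the result was not tested.

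The genes called at P22 and in the P7 TPM libraries were mostly different ones: 1 gene, Ndufab1, was called in both, which is 1 of 10 and 1 of 31. No library is shared between these comparisons. Across the 89 genes tested in both, the genotype log2 fold changes at P22 had a Spearman rho of −0.53 with those in the P7 TPM libraries and of 0.57 with those in the P7 count libraries. Across all genes tested the values were −0.33 (n = 11707) and 0.29 (n = 15215). These are descriptions across genes, which are not independent replicates and share each library's composition.

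The order of the genes in these comparisons went with transcript length. Over the 89 genes at P22, the genotype log2 fold change had a Spearman rho of −0.52 with length, against −0.21 over all genes tested. In the P7 TPM libraries it was 0.46, against 0.61 over all genes, and in the P7 count libraries −0.50, against 0.04 over all genes. The median transcript length of the genes was 746 nt. At P22, 8 of the 46 longer genes and 2 of the 43 shorter ones were called lower, with medians of −0.09 and 0.02. In the TPM libraries 16 of the 46 longer and 15 of the 43 shorter genes were called, with medians of −0.23 and −0.30. When a trend with length and GC content over all genes was removed, the median at P22 moved from −0.03 to −0.14 and the calls from 10 to 33, all lower, while calls over all genes went from 1904 to 2308 of 15443. In the TPM libraries the median moved from −0.26 to −0.07 and the calls from 31 to 0, as those over all genes went from 977 to 0. The cause of the length relation was not tested. With age, the rho with length was 0.35 over 90 genes, against −0.06 over all genes.

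**Figure D5:**
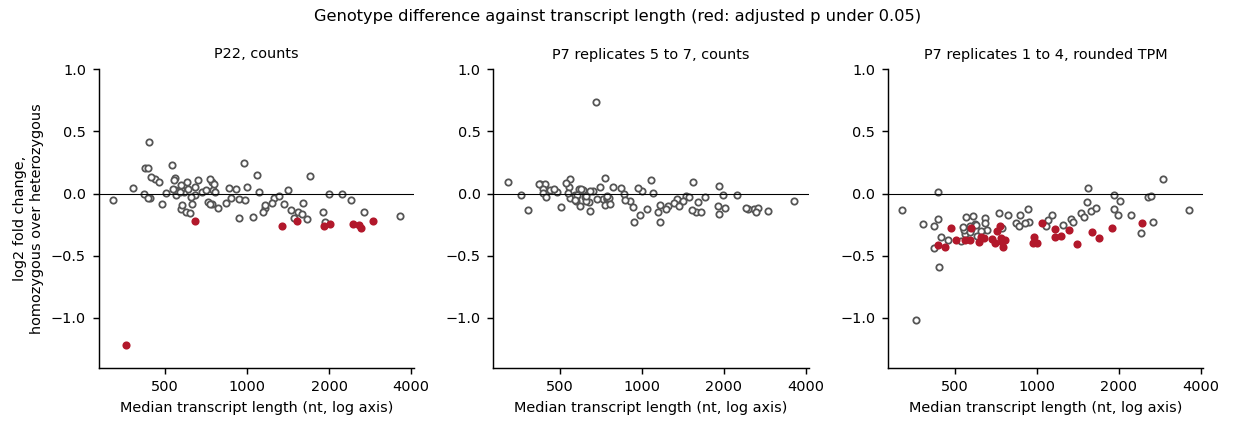
Log2 fold change of homozygous over heterozygous libraries against transcript length (nt, log axis) for each gene tested in the 3 genotype comparisons; red points have an adjusted p under 0.05. At P22 the red points lie mostly among the longer genes (8 of the 46 longer, 2 of the 43 shorter), and in the TPM libraries the shorter genes lie lower (medians −0.30 and −0.23).

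Whether the genotype difference itself changed with age was tested in 1 model over the 12 count libraries. None of the 90 genes tested had a call (0 in edgeR and 0 in DESeq2), and 2 had an unadjusted p under 0.05 in edgeR (10.2% of all genes did). Over all genes, edgeR called 5 of 16314 (0.0306%) and DESeq2 173 of 19694. Cox8b, with log2 genotype differences of −0.01 at P7 and −1.22 at P22, had an interaction of −1.26 ± 0.44 (edgeR adjusted p = 0.35). That of Ndufs1 was −0.11 ± 0.13, and the median SE of the interaction was 0.13. The genotype calls at P22 are thus not shown to differ from the P7 values.

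The genes around the chain mostly rose with age as well. In heterozygous libraries, where 34.6% of all genes rose and 38.2% fell, 11 of 16 further chain genes rose and 1 fell. Cycs, cytochrome c itself, rose by 0.93 ± 0.11 and Cyc1, which carries the haem of complex III, by 1.20 ± 0.10, while Etfdh, which feeds electrons from fatty acid oxidation, fell by 0.36 (SE 0.08). Of assembly factors outside the symbol rule, 32 of 41 rose and 3 fell: Atpaf1, an assembly factor of the ATP synthase head, rose by 2.06 ± 0.09. All 6 carriers and porins rose, with Vdac1, the outer membrane porin, by 1.70 ± 0.12. In the tricarboxylic acid cycle and pyruvate dehydrogenase list 17 of 20 rose and 2 fell, Suclg2 by 1.31 (SE 0.10) and the kinase gene Pdk1 by 1.13 (SE 0.11). In glycolysis 15 of 17 rose, with the neuronal enolase Eno2 at 3.02 ± 0.29, and Ldha and Hk2 fell by 0.85 each. Of the neuron markers 10 of 12 rose and 2 fell, the lowest log2 fold change being −3.70. Their summed level went from 1312 to 2816 CPM at P7 to 15210 to 17300 CPM at P22. The part of neurons in the age differences was not tested.

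Regulators of mitochondrial biogenesis moved in both directions with age: 7 of 15 rose and 5 fell in heterozygous libraries, shares near those of all genes (34.6% and 38.2%). Ppargc1a, the coactivator PGC-1α, rose by 2.39 ± 0.15 and Esrra, an ERR receptor, by 2.31 ± 0.07. Gabpa fell by 1.07 (SE 0.06), Yy1 by 0.57 (SE 0.08) and Nrf1 by 0.46 (SE 0.08). The factors named for 3 of the 4 promoter motifs were thus lower at P22, and the ERR receptor was higher.

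At P22 the called genes of these lists were lower in homozygous libraries, with 1 exception among the assembly factors, where 7.28% of all genes were lower and 5.04% higher. In glycolysis 10 of 17 were lower, with Pfkp, the platelet-type phosphofructokinase, at −0.59 ± 0.07. In the tricarboxylic acid cycle list 9 of 20 were lower. Of assembly factors 5 were lower, Atpaf1 among them (−0.33 ± 0.08), and 1 was higher. Of carriers and porins 2 of 6 were lower, both of them ADP/ATP carriers, with Slc25a4 at −0.21 ± 0.06. Of the 16 further chain genes 1 was lower, Cyc1 (−0.25 ± 0.07), a share near that of all genes. Of regulators 4 were lower: Esrrg (−0.55 ± 0.10), Ppargc1a (−0.34 ± 0.08), Esrra (−0.23 ± 0.07) and Esrrb (−1.49 ± 0.43). Esrrb was at 23.5, 92.2 and 25.1 CPM in heterozygous and at 16.1, 17.5 and 16.2 CPM in homozygous libraries, so its size rests on heterozygous replicate 2. Without that library the log2 ratio of the mean CPM was −0.55, an alternative chosen after seeing the data and given with no test. The summed stria vascularis markers, a list that holds Esrrb, were also apart in 1 heterozygous library (2027 CPM, the others 1029 and 1051). In the P7 TPM libraries 3 of 15 further chain genes, 8 of 40 assembly factors and 2 genes of the tricarboxylic acid cycle list were lower, and 1 gene of glycolysis was higher, in limma's test.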

How the data were processed

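RNA-seq libraries of the apical coil of the cochlea were analysed in groups taken from the labels: heterozygous and homozygous Bai1tm2b mice at P22, at P7 in replicates 5 to 7, and at P7 in replicates 1 to 4. Per the labels and the study's methods, the authors extracted RNA, made poly A libraries that were read as 150-base pairs, and ran an nf-core workflow with STAR, Salmon and DESeq2 on mm10. Versions, the annotation release and the strand setting are not given in the sources used here. The P22 and the P7 replicate 5 to 7 values were deposited by the authors as estimated counts per gene, not normalized. P7 replicates 1 to 4 were deposited together with replicates 5 to 7, but as whole numbers with nearly equal library sums (999644 to 999777). They were recorded here as a score and read as TPM rounded by the authors. Their depth is unknown, and a count test cannot be used on them. The count and TPM columns were never joined in 1 test.

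Estimated counts were rounded. Each genotype comparison was fitted with edgeR 4.0.16 (R 4.3.3; TMM, filterByExpr, quasi-likelihood test). Age and the interaction were fitted over the 12 count libraries with 4 groups. TPM were scaled by TMM, taken as log2(TPM + 1) over the genes whose mean reached 5 TPM, and tested with limma 3.58.1 with a trend. A fold change on this scale understates that of low genes. The p-values were adjusted over all genes tested. DESeq2 1.42.0, other filters, scalings and pseudocounts, a replicate block, removal of a length and GC trend and the omission of each library were tried as alternatives. The scripts were tested on simulated data. No replicate pair of count libraries agreed within sampling noise; the TPM libraries, of unknown depth, could not be tested for it.

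Transcript lengths came from the GENCODE basic set and were found for 92 of 92 genes. The genes, gene lists and tests were chosen with earlier results of these data known. Genes were named by rule: the 6 with the smallest p in each genotype comparison; the highest and lowest level and the largest rise and fall in each complex; the paralogue sets; and 9 core subunits. Genes from the lists were limited to 3 per list, except in the regulator, skeletal muscle and glycolysis lists, of which more are named. Values of some single genes that this rule would name are not reported here.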

Additional observations from a re-analysis of the deposited data

Results flagged for a closer look

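Among groups of 4 libraries, 88 were examined for 1 library far from the other 3 relative to the whole range (Dixon's test at the 95% level), and 6 stood out, where chance alone would give about 1 in 20. Only the P7 TPM libraries come in groups of 4, so no other libraries were examined. Their gene values are whole numbers, and ties among them make 1 library stand apart more easily, as for Atp5sl. Heterozygous replicate 3 was apart for 3 genes: Atp5sl (24 TPM, the others 26), Cox7a1 (126 TPM, the others 75 to 83) and Ndufs8 (280 TPM, the others 287 to 288). Heterozygous replicate 2 was apart for Ndufab1 (249 TPM, the others 235 to 237). Homozygous replicate 2 was apart for the share of complex I (1.232%, the others 1.33% to 1.35%) and for that of complex IV (1.133%, the others 1.23% to 1.25%).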

How the results depend on the processing

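The counts of genes that changed with age stayed within 1.5 times under all alternatives run: 82 to 87 genes were called in heterozygous and 83 to 87 in homozygous libraries when 1 library was left out. The counts at P7 in replicates 5 to 7 and of the interaction stayed at 0, while DESeq2 called 60 and 173 over all genes. At P22, where 10 genes were called, there were 18 with DESeq2 (3 higher, 15 lower) and 1 with the limits on size and SE. There were 33 with the length and GC trend removed and 28 with that trend removed and the replicate block. When 1 library was left out there were 1 (without heterozygous replicate 1) to 11. Calls over all genes were 1904 in the main fit, 2497 of 18667 with DESeq2 and 487 with the limits. They were 2308 and 2119 in the 2 trend fits and 630 to 2108 when 1 library was left out. In the P7 TPM libraries, where 31 were called, there were 20 without TMM scaling, which moves the median of all genes to 0.12 and that of the oxidative phosphorylation genes to −0.15, 0 with no filter, with the limits on size and SE or with the length and GC trend removed, with or without the block, and 0 to 51 when 1 library was left out; the cause was not tested. Over all genes in the P7 TPM, 977 were called in the main fit, 1539 of 11740 without TMM scaling and 90 with the limits. With no filter or with the trend removed there were 0 over all genes, and 0 to 2711 when 1 library was left out. With the replicate block alone, 4 genes were called at P22, 0 in the P7 counts and 0 in the P7 TPM. Over all genes that fit called 1505, 0 and 0. The correlation of same-numbered libraries, taken on deviations from group means, was between −0.23 and 0.08. With 3 or 4 libraries per group, this cannot show whether same-numbered pools shared litters or a dissection. Of the numbers, 2 of 3 at P22, 1 of 3 in the P7 counts and 0 of 4 in the P7 TPM correlated best with their own. No paired analysis was possible for the age comparisons because the P7 and P22 count libraries share no replicate numbers. Of single named genes, no value reversed; 33 values of the P22, 126 of the P7 TPM and 5 of the heterozygous age comparison missed the threshold under some alternative. Depth limits Cox6a2, Cox7b2 and Cox8c.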
